A study of Drosophila melanogaster with 12 samples.

Results

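The CYP3-clan cytochrome P450 genes of Drosophila melanogaster were followed in heads of flies with and without mutant human tau in their neurons. Members were the rows of the expression table whose FlyBase symbol begins with Cyp6, Cyp9 or Cyp28 followed by a letter, or with Cyp308a, Cyp309a, Cyp310a or Cyp317a, and there were 37 of them among 13515 genes. Of the 37, 36 had a mean of at least 10 normalised counts over the 12 libraries and were tested. Only Cyp310a1 fell under that limit. Another 3 genes with such symbols, Cyp6a21 and the pseudogenes Cyp6a15Psi and Cyp6t2Psi, were not analysed here.

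Tau flies had the genotype Elav-Gal4/+;UAS-tauR406W/+, and control flies Elav-Gal4/+, so that both carried the pan-neuronal Gal4 driver and the controls carried no UAS transgene. Expression of tau, the transgene insertion and any difference in genetic background therefore go together and cannot be told apart here. TauR406W is human tau with a substitution found in inherited frontotemporal dementia, and the Elav driver directs it to neurons, whereas P450 genes are transcribed in many head tissues. Flies of both groups were at day 10 of adulthood, and each of the 6 tau and 6 control libraries came from 18 pooled heads of males and females. The measurement was RNA sequencing after removal of ribosomal RNA, given as 1 normalised count per gene and library. The question put to the data is how each member's level in tau heads compares with that in control heads.

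Cytochrome P450 enzymes are haem proteins that insert oxygen into small molecules, with electrons supplied by the reductase Cpr in the endoplasmic reticulum. Insect P450 genes fall into clans, and the CYP3 clan, with the Cyp6, Cyp9 and Cyp28 families, holds many of the enzymes that act on insecticides, plant toxins and drugs. Many CYP3-clan genes lie side by side in tandem arrays, and several are induced by foreign compounds such as phenobarbital or caffeine.

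Depth, estimated from the values, was 25.6 to 40.7 M read pairs for tau libraries and 20.4 to 33.3 M for control libraries. A single read pair was worth 0.654 to 0.965 normalised counts in tau and 0.840 to 1.48 in controls. Reads in silent genes, whose median did not exceed 2, were most numerous in tau B, control E and control F. Such genes summed to 47385 normalised counts in tau B, where the remaining tau libraries had 2512 to 4904. Control E had 22677 and control F 10626, where the remaining controls had 2312 to 4735. Among all 10845 genes tested, 228 were higher and 339 were lower in tau heads (limma on log2 values, Benjamini-Hochberg adjusted p under 0.05), which is 5.23% called in either direction.

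The 37 members encode proteins of 433 to 538 residues (median 505) in the Ensembl annotation of BDGP6, which has dm6 coordinates. Their longest coding transcripts have 1 to 6 exons. On chromosome arm 2R lie 21 members, on 2L 7, on 3R 5 and on X 4. With neighbours at most 30 kb apart counted as an array, 21 members fell into 7 arrays and 16 stood alone. The largest array holds 8 members, from Cyp6a22 to Cyp317a1 (2R, 14871366 to 14903095).

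Together the 37 genes took 0.171 to 0.379% of the normalised counts of a tau library and 0.220 to 0.466% of those of a control library. Their sum had a lowest, median and highest value of 45422, 58258 and 99346 in tau heads and of 61648, 101034 and 140986 in control heads. The 6 members with the highest means, Cyp28d1, Cyp9b2, Cyp6g1, Cyp6d5, Cyp9f2 and Cyp28a5, made up 61.9% of the summed means in tau and 65.2% in controls. Control B, with the lowest control sum, lay below tau C, tau D and tau E, so the groups overlapped.

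Most tested members had lower values in tau heads, and a pair of genes stood far above control. Of the 36, 2 rose (Cyp6d2 and Cyp6a17), 9 fell and 25 were not called. The background over all genes was 2.10% called higher and 3.13% called lower. Estimates below 0 were found for 27 of 36 members, against 48.6% of all genes, and the median log2 fold change was −0.33, against 0.01 over all genes. The members were chosen with earlier results of these data known, so these counts are descriptions without a test of their own. Heads are mixtures of tissues, and fewer cells of a type and less RNA per cell cannot be told apart here.

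By subfamily, 1 of 12 Cyp6a genes rose and 2 fell, with a median of −0.42. Among the 10 other Cyp6 genes 1 rose and 1 fell, with a median of −0.11. Among the 6 Cyp9 genes 3 fell and none rose, and the median was −0.61. In the Cyp28 family 1 of 4 fell, with a median of −0.41, and of the 4 tested genes of the Cyp308 to Cyp317 families 2 fell, with a median of −0.76. By position, calls were made for 3 of 6 tested members on 2L, all lower, and for 8 of 21 on 2R, 2 higher and 6 lower. By limma no call was made among the 5 members on 3R, where 0 had an unadjusted p under 0.05 and the median was −0.04, or among the 4 on X, where 2 did and the median was −0.19. Of all 10845 genes tested, 5.23% were called and 1972 had an unadjusted p under 0.05. With so few members on 3R and X, no call is near that background, and whether chromosome arms differ was not tested.

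**Figure D1:**
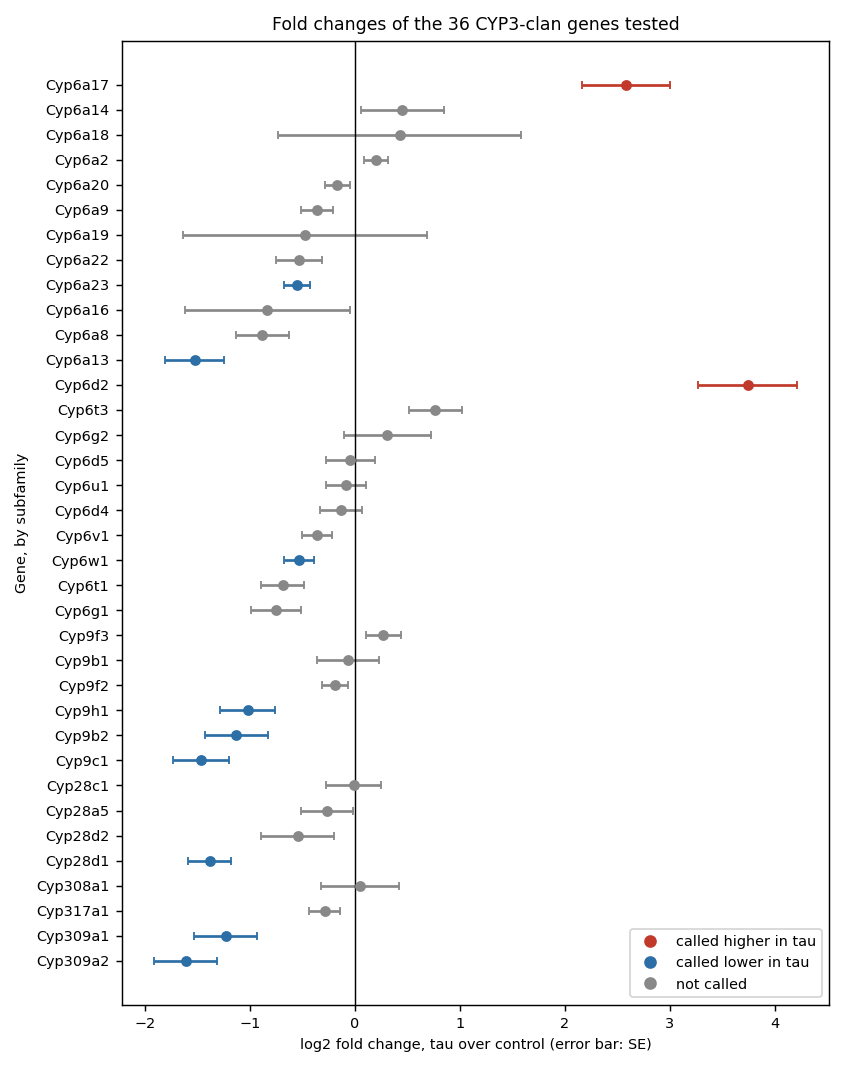
Log2 fold change of tau over control for the 36 tested CYP3-clan genes (x axis), with genes on the y axis by subfamily and bars for the moderated SE; red points were called higher, blue points lower and grey points not called. Cyp6d2 at 3.74 and Cyp6a17 at 2.58 stand to the right, and the 9 blue points lie between −1.61 and −0.53.

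Cyp6d2 (FBgn0034756; 2R, 22652573 to 22654530), which has been linked to tolerance of the plant alkaloid camptothecin, had the largest fold change of the 36. Its lowest, median and highest values were 488.5, 1519 and 4662 normalised counts in tau heads and 61.7, 113 and 168 in control heads. Every tau library lay above every control library, the lowest tau value being tau B. The means were 1926 ± 1592 in tau and 113 ± 46.1 in controls (SD, n = 6 each), and the log2 fold change was 3.74 ± 0.47 (SE; limma adjusted p = 0.00046), or 13.4-fold. Per kb of exon its level was 1095 in tau, ninth of the 37 members, and 64.4 in controls, thirty-first.

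Among the tau libraries Cyp6d2 spread widely, from 4662 in tau D and 2768 in tau C through 1917 in tau E and 1120 in tau F to 602 in tau A and 488.5 in tau B. Its SD on the log2 scale was 1.27 in tau and 0.62 in controls. Exons of Cyp6d2 share 897 bases with nsr on the opposite strand. That gene had 3.38 ± 6.05 normalised counts in tau and 5.09 ± 4.30 in controls, too low to be tested. The libraries were stranded per the labels, but whether the quantification used the strand is not given in the sources used here.

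Cyp6a17 (FBgn0015714; 2R, 14873953 to 14875739), which is needed for the normal temperature preference of flies, also rose. Its lowest, median and highest values were 453, 613 and 1152 normalised counts in tau heads and 37.4, 160 and 249 in control heads, without overlap. The log2 fold change was 2.58 ± 0.42 (SE; limma adjusted p = 0.00191), or 5.98-fold. Cyp6d2 and Cyp6a17 were the only tested members without overlap between groups, where 3.37% of all genes had none (1.58% higher and 1.80% lower).

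Cyp6a23 (FBgn0033978; 2R, 14875829 to 14877654) lies 89 bases beyond the end of Cyp6a17, on the same strand. It had 757, 951 and 1219 normalised counts as its lowest, median and highest values in tau heads and 1197, 1446 and 1547 in control heads. Tau D lay above control E alone, and the other tau libraries lay below all controls. The log2 fold change was −0.55 ± 0.13 (SE; limma adjusted p = 0.0181). With the mean of the yolk protein genes Yp1, Yp2 and Yp3 as a covariate the log2 fold change was −0.53 and the call was lost (adjusted p = 0.150).

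The sum of Cyp6a17 and Cyp6a23 was 1335 to 2245 normalised counts in tau heads and 1259 to 1714 in control heads. Means were 1667 ± 394 in tau and 1536 ± 167 in controls (SD, n = 6 each), and the ranges overlapped. The difference of the log2 sums was 0.09 ± 0.15 (SE; two-sided exact permutation p = 0.528 over 924 assignments, also 0.528 adjusted over the 2 values tested). Without tau C and tau D, which had the highest sums, the difference was −0.11 (adjusted exact permutation p = 0.267). Under each other alternative run it was above 0 and not called.

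Cyp6a17 made up 29.6 to 51.3% of that sum in tau heads and 2.78 to 17.2% in control heads. The shares were 41.5 ± 7.11% in tau and 8.87 ± 5.46% in controls (SD, n = 6 each), a difference of 32.7 ± 3.66 percentage points (SE). Its exact permutation p of 0.00216 is the smallest these 12 libraries can give (0.00433 adjusted over the 2 values). The opposite moves of both genes were known when the share was chosen, so it restates them. How reads were divided between these neighbours is not given in the sources used here, and sequences of the copies were not analysed, so each copy's own value is uncertain.

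**Figure D2:**
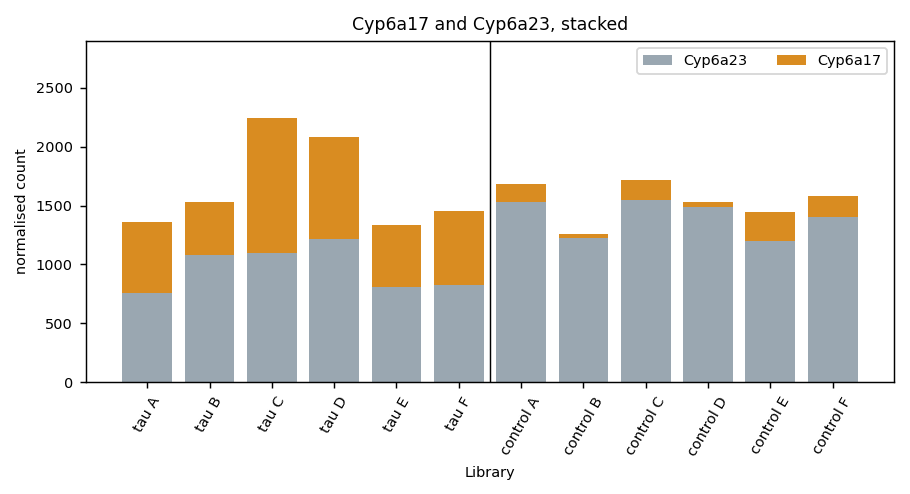
Normalised counts of Cyp6a23 (grey) and Cyp6a17 (orange), stacked, for each of the 6 tau and 6 control libraries; the height of a bar is the sum. The orange part is 29.6 to 51.3% of the bar in tau libraries and 2.78 to 17.2% in control libraries, while bar heights overlap.

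The other members of the largest array were not called. Cyp6a22, which precedes Cyp6a17, had a log2 fold change of −0.53 ± 0.22 (SE; limma adjusted p = 0.198), and was called lower without control B. Cyp6a9 had −0.36 ± 0.15 and Cyp6a8, a gene induced by caffeine and phenobarbital, −0.89 ± 0.25 (adjusted p = 0.220 and 0.0546). Cyp6a8 was called lower without tau D, without control B and with a mean of at least 100 as the filter. Cyp6a20, known for lower expression in more aggressive males, had 2897 ± 526 normalised counts in tau and 3231 ± 420 in controls (−0.17 ± 0.12). Cyp317a1 had −0.29 ± 0.15, and its exons share 1331 bases with Kank on the opposite strand, which had 0.02 ± 0.09. The summed array had 6618 ± 1253 normalised counts in tau and 7586 ± 1025 in controls (SD, n = 6 each).

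**Figure D3:**
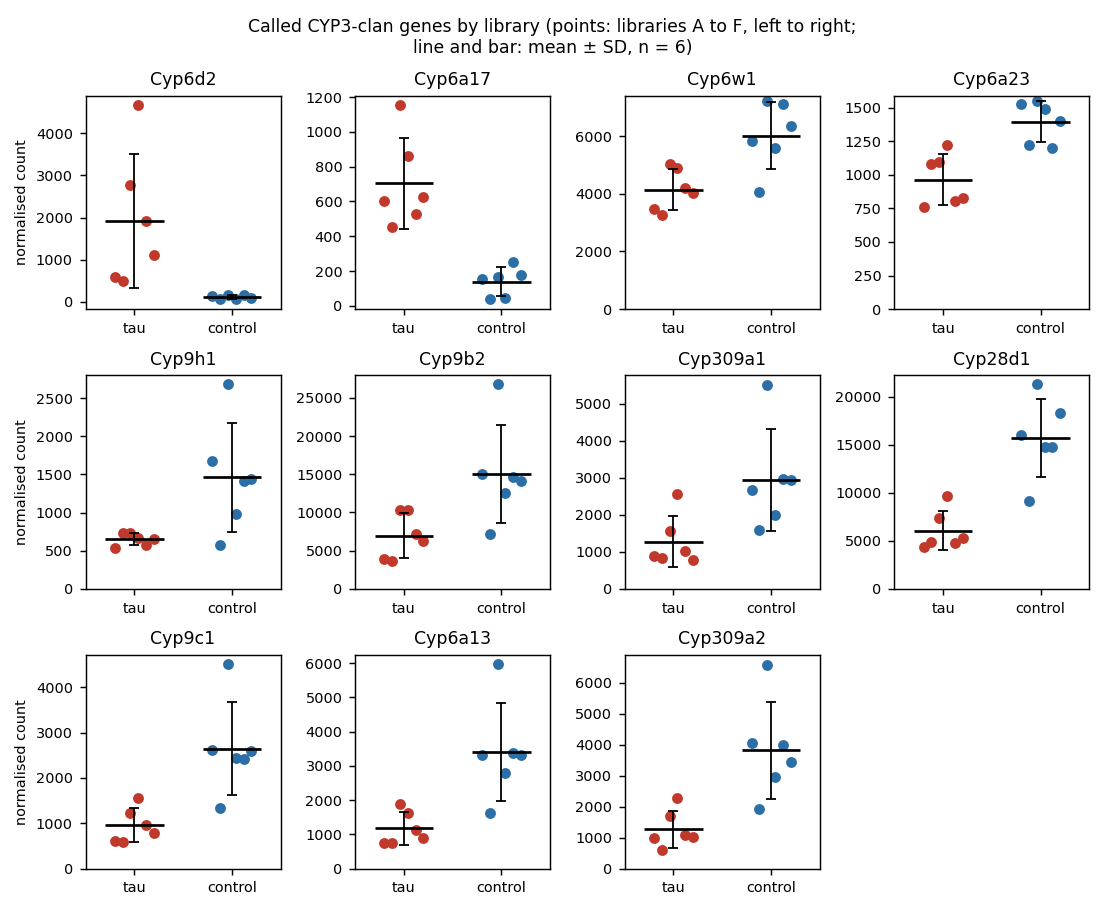
Normalised counts (y axes, each including 0) of the 11 called CYP3-clan genes in tau libraries (red, left) and control libraries (blue, right), with mean and SD (n = 6 each). Cyp6d2 and Cyp6a17 have no overlap between groups, and in the other 9 at least 1 tau library reaches above the lowest control.

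Among the 9 genes that fell, Cyp28d1 (FBgn0031689; 2L, 5210460 to 5212445), which has been linked to nicotine resistance, had the highest control level per kb of exon. That level was 3757 per kb in tau and 9717 in controls. Its lowest, median and highest values were 4384, 5104 and 9640 normalised counts in tau and 9167, 15384 and 21343 in controls. Tau D lay above control B, and no other pair of libraries crossed. The log2 fold change was −1.39 ± 0.21 (SE; limma adjusted p = 0.00108), a 2.61-fold fall. Its neighbour Cyp28d2 (2L, 5207267 to 5209345) was low, at 58.8 ± 17.7 in tau and 92.8 ± 42.9 in controls, and was not called (−0.55 ± 0.35).

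Cyp309a2 (2L, 2564886 to 2573037) and Cyp309a1 (2L, 2562483 to 2564830) are adjacent, 55 bases apart, and both fell. Cyp309a2 had lowest, median and highest values of 593, 1058 and 2270 normalised counts in tau and 1916, 3702 and 6579 in controls. Only tau D crossed, above control B, and the log2 fold change was −1.61 ± 0.30 (SE; limma adjusted p = 0.00495). Cyp309a1 had 772, 958 and 2572 in tau and 1596, 2799 and 5516 in controls, with a log2 fold change of −1.23 ± 0.30 (adjusted p = 0.0259). For Cyp309a1, tau D lay above control B and control D.

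In the Cyp9 family, Cyp9c1 (2R, 24631063 to 24632923) fell 2.76-fold. It had 599, 876 and 1565 normalised counts as its lowest, median and highest values in tau and 1345, 2510 and 4507 in controls, and only tau D crossed, above control B. The log2 fold change was −1.47 ± 0.26 (SE; limma adjusted p = 0.00407). An antisense RNA, asRNA:CR43787, shares 1711 exonic bases with Cyp9c1 and was not analysed here.

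Cyp9b2 (2R, 7130277 to 7132139) fell by 1.13 ± 0.30 on the log2 scale (SE; limma adjusted p = 0.0366). Its values were 3649, 6693 and 10385 in tau and 7226, 14393 and 26768 in controls, with tau C and tau D above control B. The adjacent Cyp9b1, 468 bases away, was not called. Its values were 857, 1700 and 3069 normalised counts in tau and 962, 1964 and 2218 in controls, with a log2 fold change of −0.06 ± 0.30. Whether the changes of these neighbours differ was not tested.

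Cyp9h1 (2R, 12840813 to 12842558) fell 2.03-fold (adjusted p = 0.0327 by limma). It had 537, 664 and 737 normalised counts in tau and 573, 1423 and 2689 in controls. Control B lay inside the tau range, and every other control lay above all tau libraries. Its SD on the log2 scale was 0.18 in tau and 0.75 in controls. Cyp9f2 and Cyp9f3 were not called, with log2 fold changes of −0.19 ± 0.12 and 0.27 ± 0.17.

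Cyp6a13 (2R, 8570499 to 8572147) fell 2.88-fold, to a lowest, median and highest value of 741, 1018 and 1893 normalised counts in tau, against 1617, 3324 and 5962 in controls. Tau C and tau D lay above control B. The log2 fold change was −1.53 ± 0.28 (SE; limma adjusted p = 0.0047), and without tau B, control E and control F the adjusted p was 0.0594. Cyp6w1 (2R, 6173684 to 6176195) fell less, by 0.53 ± 0.14 on the log2 scale (adjusted p = 0.0394). Its values were 3276, 4106 and 5017 in tau and 4042, 6088 and 7205 in controls, and tau C, tau D and tau E lay above control B.

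The calls of Cyp309a1, Cyp9b2, Cyp9h1 and Cyp6w1 changed with single libraries, and held in 14, 12, 13 and 11 of 24 alternative analyses. Leaving out tau A, tau E, tau F, control A, control E or control F ended each of these 4 calls. Leaving out tau B ended those of Cyp309a1, Cyp9b2 and Cyp6w1, tau D that of Cyp9h1, and control C or control D those of Cyp9b2 and Cyp6w1. Adjusted p over the alternatives reached 0.184, 0.190, 0.304 and 0.264. Cyp28d1 and Cyp9c1, with Cyp6d2 and Cyp6a17, were called in all 24 alternatives, and Cyp309a2, Cyp6a13 and Cyp6a23 in 23. The count of members that fell was 5 without tau A, tau E, tau F, control A, control E or control F.

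Of the 6 members with the highest means, 4 were not called by limma. Cyp6g1 (2R, 12185667 to 12188431), whose high expression gives DDT resistance in some strains, had 5741, 6771 and 14660 normalised counts in tau and 8298, 14537 and 18791 in controls. The estimate was −0.76 ± 0.24 on the log2 scale (SE; unadjusted p = 0.00587, adjusted p = 0.083), and the gene was called lower without control B, without tau D, and without tau C and tau D together. Cyp6d5 had 3894, 6270 and 11693 in tau and 4660, 6471 and 8562 in controls (−0.04 ± 0.24), and its sign turned under several alternatives. Cyp28a5 had 3506, 4975 and 10354 in tau and 4624, 6868 and 7695 in controls (−0.27 ± 0.24), and without tau C and tau D it was called lower at −0.66 (adjusted p = 0.0372). Tau C and tau D were left out together after the data were seen. They held the highest tau values of Cyp6g1 and Cyp28a5, so leaving them out lowers the tau means of both. Cyp9f2 had 5219, 5715 and 7508 in tau and 5604, 7080 and 8413 in controls. In all 4 the groups overlapped.

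Cyp6t3, a gene with a role in ecdysone synthesis in larvae, had the third highest estimate of the 36. It had 434, 735 and 1273 normalised counts in tau and 286, 502 and 612 in controls, with a log2 fold change of 0.77 ± 0.25 (SE; limma adjusted p = 0.0968). It was called higher without tau B, with libraries rescaled to equal totals and with array weights. Cyp6a2, a gene overexpressed in some DDT-resistant strains, had 398 ± 55.2 in tau and 344 ± 16.4 in controls (0.20 ± 0.12). Cyp6t1 had −0.69 ± 0.20 (adjusted p = 0.0638) and was called lower with array weights, without tau D, without control B, and without tau C and tau D together. Cyp6d4, Cyp6u1, Cyp28c1 and Cyp308a1 had estimates between −0.13 and 0.05. Cyp6v1 had −0.36 ± 0.14 (adjusted p = 0.181).

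**Figure D4:**
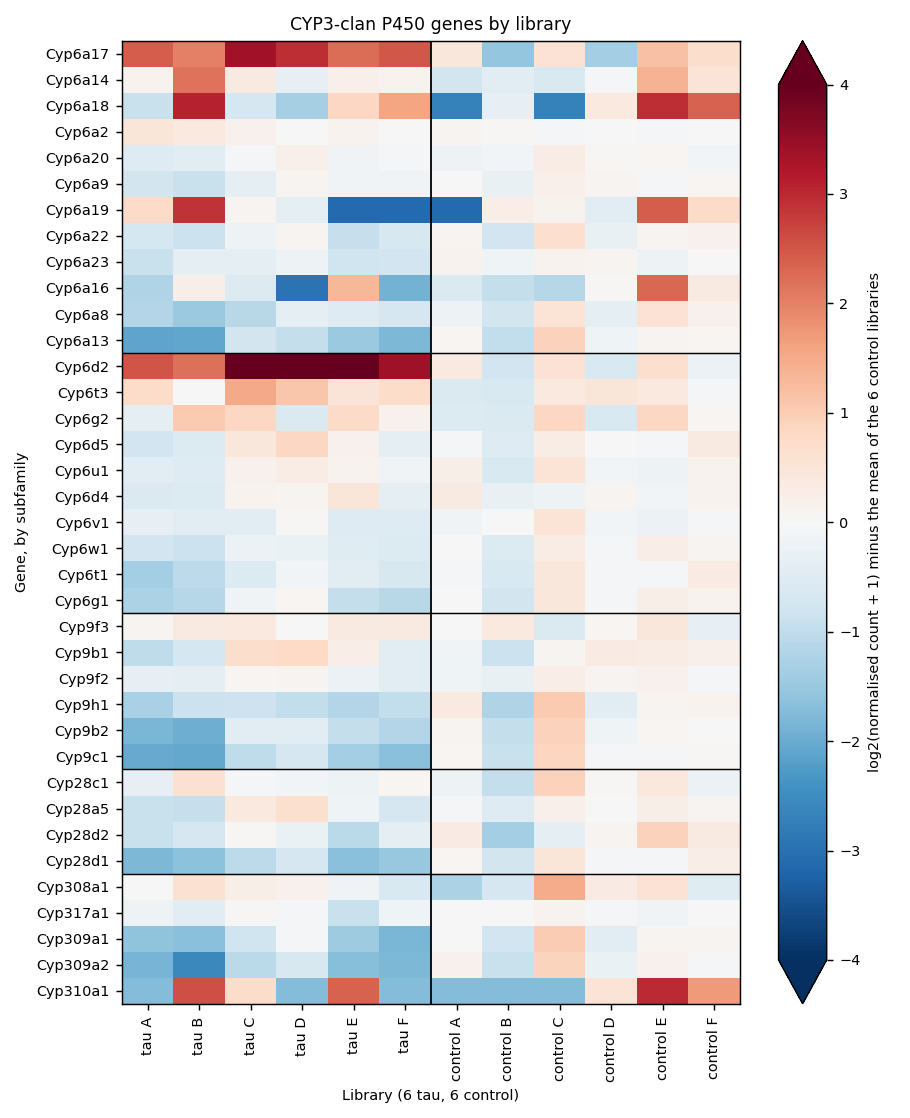
Log2(normalised count + 1) of the 37 CYP3-clan genes (rows, by subfamily) in 6 tau and 6 control libraries (columns), shown as the difference from the control mean of the gene; red is higher and blue lower, and the colour scale stops at 4 on either side. Cyp6d2 and Cyp6a17 are red across the tau columns, and the low genes Cyp6a18, Cyp6a19 and Cyp310a1 are red in tau B and control E.

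In 4 of the 37 members the highest values lay in the libraries with most reads in silent genes. Cyp6a14, Cyp6a18, Cyp6a19 and Cyp310a1 were highest in tau B among tau libraries and in control E and control F among controls. How many of all genes share this pattern was not counted. Tau B was the highest tau library for 28.1% of all genes tested and for 6 of 36 members. Control E was the highest control for 20.8% of all genes tested and for 11 of 36 members. Cyp6a14 had 3289 normalised counts in tau B, where the next highest tau library had 932. It had 1893 in control E and 1042 in control F, where the remaining controls had 433 to 689. Cyp6a18 had 53.6 in tau B and 49.3 in control E, Cyp6a19 63.4 and 45.3, and Cyp310a1 19.1 and 25.7. Cyp6a18, Cyp6a19 and Cyp310a1 were listed at 0 in at least 1 library, where an exact 0 can be a failed estimate. Cyp6a16, highest in tau E and control E, and Cyp6g2 were also low, with medians of 9.35 and 46.4 in tau and 14.7 and 27.9 in controls. The part of the silent-gene reads in these values was not tested.

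Members varied more between libraries of a group than most genes did. The within-group SD on the log2 scale had a median of 0.51 over the 36 members, against 0.28 over all 10845 genes tested. Tau C and tau D were the pair of tau libraries with the highest values for 20 of 36 members (55.6%), against 11.6% of all genes. Tau D was the highest tau library for 19 members and tau C for 8. The members' median deviation from the tau mean was 0.365 in tau D and 0.319 in tau C, against −0.34 in tau A and −0.32 in tau B.

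The controls showed the same kind of shared movement. Control B was the lowest control library for 24 of 36 members, against 19.6% of all genes, with a median deviation of −0.62. Control C was the highest for 20 members, against 30.8% of all genes, with a median deviation of 0.41. For all genes tested, median deviations lay between −0.01 and 0.03 in each of the 12 libraries. Of the 9 genes that fell, 8 had their lowest control value in control B and all 9 had their highest tau value in tau C or tau D.

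**Figure D5:**
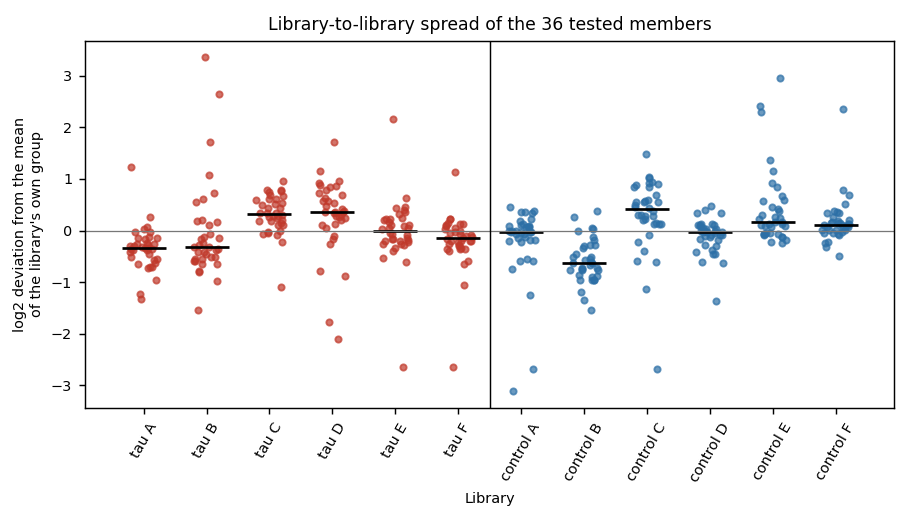
Log2 deviation of each of the 36 tested members (points) from the mean of the library's own group, for 6 tau (red) and 6 control (blue) libraries, with the median as a black line. Medians are 0.319 and 0.365 in tau C and tau D and −0.62 in control B.

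The 4 tau libraries highest for Cyp6d2 stood in the same order, above the other 2, in several further genes. These genes were chosen after their values were seen, and how many of all genes share the order was not counted. Tau C and tau D were the highest tau pair for 20 of 36 members. Cyp6d5, a gene induced by foreign compounds, ran from 11693 in tau D, 9133 in tau C, 7527 in tau E and 5013 in tau F to 4533 in tau B and 3894 in tau A. Cyp9b1 ran from 3069, 2821, 2092 and 1307 to 1072 and 857 in that same order of libraries. In the reductase gene Cpr the same order gave 25153, 23735, 21844, 16352, 10175 and 8191. Unlike Cyp6d2, which was higher in every tau library, these genes had tau means of 6966, 1870 and 17575, against 6767, 1812 and 26414 in controls.

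Without tau C and tau D, 2 members rose and 11 fell, 8 of them among the 9. This pair of libraries was chosen after the data were seen. It was the highest tau pair for 20 of 36 members, so leaving it out lowers the tau means of those members. Without tau B, control E and control F, 2 rose and 4 fell (Cyp28d1, Cyp309a2, Cyp6a23 and Cyp9c1), all among the 9. With the yolk protein covariate 2 rose and 3 fell, while the median of the 36 was −0.47. Fewer libraries also leave less power.

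The 17 genes of P450 electron transfer and transcriptional control had a median log2 fold change of 0.04, and none rose, 1 fell and 16 were not called (limma). The gene that fell, Cyt-b5-r, encodes a cytochrome b5-related protein that resembles fatty acid desaturases and is not known to serve P450 enzymes. It had 34723 ± 11820 normalised counts in tau and 67601 ± 20840 in controls (−0.96 ± 0.23, adjusted p = 0.0238). Cpr, which reduces all microsomal P450 enzymes, had −0.68 ± 0.26 (adjusted p = 0.159), and the electron carrier Cyt-b5 0.26 ± 0.10. The xenobiotic receptor gene Hr96 had 0.09 ± 0.12, and cnc, Keap1 and maf-S of the oxidative stress pathway had 0.02 ± 0.07, 0.20 ± 0.13 and −0.04 ± 0.11. The lowest p among those not called were those of the AP-1 gene kay at 0.26 ± 0.08 (adjusted p = 0.0643) and the nuclear receptor gene svp at 0.25 ± 0.08 (adjusted p = 0.0723).

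Outside the CYP3 clan, 40 P450 genes were tested, of which 3 rose and 7 fell, with a median of −0.16. In the CYP4 clan 1 of 28 rose and 5 fell, in the mitochondrial clan 2 of 9 rose and none fell, and of 3 CYP2-clan genes 2 fell. Whether the CYP3 clan differs from these was not tested. The mitochondrial-clan genes that rose were Cyp12d1-d and Cyp12c1. Cyp12d1-d had 413 ± 152 normalised counts in tau and 1.02 ± 2.49 in controls (SD, n = 6 each). Control C had 6.10, and every other control was listed at 0. Its log2 fold change was 8.14 ± 0.54 (SE, limma adjusted p = 5.2e-07), while Cyp12d1-p had −0.14 ± 0.23 (adjusted p = 0.830). What sets these 2 genes apart was not tested. None of the 18 nearest tested genes outside the clan on either side of the 11 called members was called by limma, and 2 had an unadjusted p under 0.05. Of all 10845 genes tested, 5.23% were called and 1972 had an unadjusted p under 0.05. Counts this small among 18 genes are near that background, and the difference was not tested.

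Among markers of other tissues, calls were made mainly in the fat body and haemocyte lists. Over all genes tested, 2.10% were called higher and 3.13% lower. Of 15 fat body markers 4 fell (fit, Treh, tobi and LpR2) and none rose. Estimates lay below 0 for 13 of the 15, while bmm had a log2 fold change of 0.59 ± 0.16 (SE, limma adjusted p = 0.0501). The summed level of the 15 ran from 665569 to 1561633 in tau and from 897747 to 2608515 in controls. Of 14 haemocyte markers 8 fell and none rose, with sums of 36615 to 48902 in tau and 55418 to 81368 in controls. Of 12 glia markers 1 rose and 2 fell (62360 to 72711 in tau, 68502 to 76754 in controls). Of 12 neuron markers none was called and 0 had an unadjusted p under 0.05 (926714 to 1216361 in tau, 1113238 to 1338983 in controls). Most of the neuron sum came from ninaE, with 765332 of 926714 in tau D and 1105401 of 1338983 in control B. That gene had a log2 fold change of −0.21 ± 0.21 (SE; limma adjusted p = 0.689). The neuron sums therefore say little about the other neuron markers. The defining genes apolpp, Hml, repo and elav were detected in both groups, and none was called. Their log2 fold changes were −0.48 ± 0.21, −0.19 ± 0.15, 0.03 ± 0.11 and 0.12 ± 0.12 (SE, limma adjusted p = 0.231, 0.590, 0.938 and 0.684).

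Of 4 female markers 1 fell, all 4 also standing in the fat body list, with sums of 270304 to 1078038 in tau and 457837 to 1972108 in controls, and of 4 male markers 1 rose. That gene is Cyp4p2, itself the CYP4-clan gene counted above as higher. It had 112 ± 45.6 normalised counts in tau and 3.97 ± 5.70 in controls (SD, n = 6 each). Control pools also held males, so Cyp4p2 did not mark males here. The other 3 male markers were not called. The male list summed to 3614 to 4792 in tau and 3109 to 5701 in controls. Within tau, the fat body sum was 1024827 in tau C and 665569 in tau D, against 1561633 in tau A. From 80.9 to 93.6% of it in tau, and 84.9 to 92.6% in controls, came from apolpp, Yp1, Yp2 and Yp3. Of the 15 fat body genes, 4 (fit, Treh, LpR2 and bmm) had tau C and tau D as their highest tau libraries. That held for 20 of the 36 CYP3-clan genes and for 11.6% of all genes. LpR2, a lipophorin receptor gene and 1 of these 4, had 11691 normalised counts in tau C and 13001 in tau D, against 5540 in tau A. The defining gene apolpp went the other way, with 250261 in tau C and 178958 in tau D, against 383764 in tau A. In control C, high for most members, the fat body sum was 2608515, the highest of the 12 libraries. Other controls went differently. Control B, with the lowest control sum of the CYP3-clan genes at 61648, had a fat body sum of 2065448. Control E, with the lowest control fat body sum at 897747, had a CYP3-clan sum of 105436. The part of cell composition and of sex in the CYP3-clan values was not tested.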

How the data were processed

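The submitters' processing notes name Trimmomatic 0.36, FastQC, Salmon 0.13.1 and DESeq2 1.24 as tools and dm6 as the build, and the annotation is not given in the sources used here. The unit of the deposited table is a signal: gene counts that the authors scaled with DESeq2 normalisation factors, as the table's name and the notes have it. Whole reads could not be recovered from it, so no count model was run.

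Of 13515 identifiers, 13433 were given symbols from a gene name table and 82 had none. Genes with a mean of at least 10 over the 12 libraries entered limma 3.58.1 (R 4.3.3; lmFit, eBayes with trend, no covariate) as log2(value + 1), which understates changes of low genes. Tests were two-sided and adjusted by Benjamini-Hochberg over all genes tested, and each SE of a limma fold change is the moderated one. Depth was taken as the total over the value at which low values pile up. Exact permutation tests over libraries served for the sum and share of Cyp6a17 and Cyp6a23. Their SEs are those of a difference of group means, from the variance within each group. Simulated data were used to check the limma script.

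Members and lists were chosen with earlier results of these data known. Members that were called, Cyp6a17, Cyp6a23 and the 6 with the highest means are given in full, other members by range, and from the other lists the called genes, those of lowest p and some chosen for their role. The submitters call the 6 pools of each group independent. Same-letter libraries did not pair: their deviations correlated at −0.23 to 0.14 across genes. Alternatives changed the pseudocount, filter, scaling or variance model, added weights, a block or a covariate, or left out libraries.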

Additional observations from a re-analysis of the deposited data

Results flagged for a closer look

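Of 78 groups of 6 libraries (37 members, and the sum and share of Cyp6a17 and Cyp6a23, in tau and in control), 9 held a library whose gap to the nearest other passed Dixon's critical value for an outlier. Chance gives about 1 in 20 for independent, normally distributed values. The values were untransformed and the groups share the 12 libraries, so that rate cannot be set against the 9 flagged groups. Tau B stood apart in 4 of these: Cyp6a14 at 3289 normalised counts (next 932), Cyp6a19 at 63.4 (next 13.8), Cyp6a18 at 53.6 (next 18.1) and Cyp28c1 at 340 (next 236). Control E stood apart for Cyp6a16 at 90.5 (next 22.5) and Cyp6a19 at 45.3 (next 13.9). Tau B and control E also had the highest sums over silent genes in their groups. Control C stood apart for Cyp309a1 at 5516 (next 2961) and Cyp6v1 at 811 (next 549), and tau D for Cyp6v1 at 570 (next 435). Of these genes, Cyp309a1 was among those that fell, and its call ended without tau B but not without control C.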

How the results depend on the processing

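Cyp6d2 and Cyp6a17 were called higher in all 24 alternatives, with log2 fold changes of 3.07 to 4.16 and 2.27 to 3.16, and Cyp6t3 joined them in some. The 9 genes that fell became 5 without the variance trend, 4 without tau B, control E and control F and 3 with the yolk protein covariate. With that covariate, genes no longer called had log2 fold changes of −1.59 (Cyp309a2), −1.21 (Cyp309a1), −1.17 (Cyp9b2), −0.84 (Cyp9h1), −0.61 (Cyp6w1) and −0.53 (Cyp6a23). The count of members called lower was 5 to 13 when single libraries were left out, and the median of the 36 was then −0.43 to −0.25. With libraries rescaled to equal totals the median of all genes was 0.11 and that of the members −0.22, 3 members were higher and 8 lower.

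Over all genes, 525 were called higher with equal totals (261 lower), 424 with array weights, 138 without tau B, control E and control F, 54 with the yolk protein covariate and 117 without tau C and tau D. Lower calls were 212 without the variance trend, 170 without those 3 libraries and 92 with the covariate. Leaving out single libraries gave 147 to 242 higher and 222 to 446 lower.

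The sum of Cyp6a17 and Cyp6a23 turned to −0.11 without tau C and tau D, chosen after the data were seen, and ran from 0.002 to 0.15 without single libraries. The share difference ran from 30.7 to 35.1 points without single libraries, and was 37.8 without tau B, control E and control F and 30.3 without tau C and tau D. Cyp6d5, near 0, turned to 0.0602 with equal totals, 0.0714 with array weights and 0.13 without tau B, control E and control F, and ran from −0.22 to 0.10 without single libraries.

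With the library letter as a replicate block, 3 members rose and 12 fell (adding Cyp6t3 higher and Cyp6a8, Cyp6g1 and Cyp6t1 lower), and the share of Cyp6a17 had an adjusted p of 0.0625, the smallest the paired permutation can give after adjustment (difference 32.7 points). The letters do not pair the libraries.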
